A study of Arabidopsis thaliana with 88 samples.

Results

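Shoots of soil-grown sos3-2 Arabidopsis were compared between neo-tetraploid plants, with 4 chromosome sets (4x), and their diploid progenitor (2x). The comparison rests on 6 of 88 libraries, 3 of 4x and 3 of 2x, picked by their titles. Each is a 3′ mRNA library made from the shoot of 1 plant grown for 5 weeks on peat soil under short days, with weekly nutrient solution and no salt treatment. All 6 plants carried the sos3-2 allele in SOS3, so the control shared the mutation, and the study's line table lists that allele in the diploid stock as not verified. The 4x plants belonged to a single line derived from the 2x line with colchicine, so that anything particular to that line cannot be told apart from ploidy. The other 2x and 4x genotypes used for comparison were wild type Col-0, esb1-1, rhd6-3/rsl1-1 and a line labelled chx25-3, all grown the same way. In the study, sos3-2 and esb1-1 each suppressed the elevated leaf potassium of neo-tetraploids. It used root RNA of both mutants to narrow the ploidy-dependent genes of wild type roots to those associated with leaf potassium.

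SOS3 is a calcineurin B-like calcium sensor, also called CBL4. On a rise of cytosolic calcium it binds and activates the kinase SOS2, which in turn activates the plasma membrane sodium/proton antiporter SOS1. The pathway is best known from roots under salt. Doubling a genome leaves the ratio of gene copies as it was, so that most genes are usually transcribed at similar relative levels in a neo-tetraploid and its progenitor. RNA is given here as CPM, counts scaled to a common library size and thus a share of each library, and total RNA per cell was not measured.

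The libraries held between 5935593 and 8025921 assigned reads, and no pair of them agreed within counting noise. Leaf markers summed to between 31860 and 44460 CPM in each, whereas root markers summed to at most 2.85 and flower markers to at most 1.18 CPM. Chloroplast-encoded genes took 9.30 to 16.8% of the reads, with the highest share in 4x replicate 1. The largest source of variation among all 29 soil shoot libraries, a first principal component with 26% of the variance, followed the library number in the file names. CCA1, a clock gene with a morning peak, stood at 191, 59.3 and 11.2 CPM in 2x replicates 1 to 3 (library numbers 39, 58 and 90) and at 130, 28.5 and 14.3 CPM in 4x replicates 1 to 3 (numbers 45, 78 and 84). Low numbers thus went with a high CCA1 level in both groups, and the numbers of both groups overlapped. What the number stands for is not given in the sources used here, and it was kept as a covariate in the fits of soil shoots and soil roots.

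**Figure D1:**
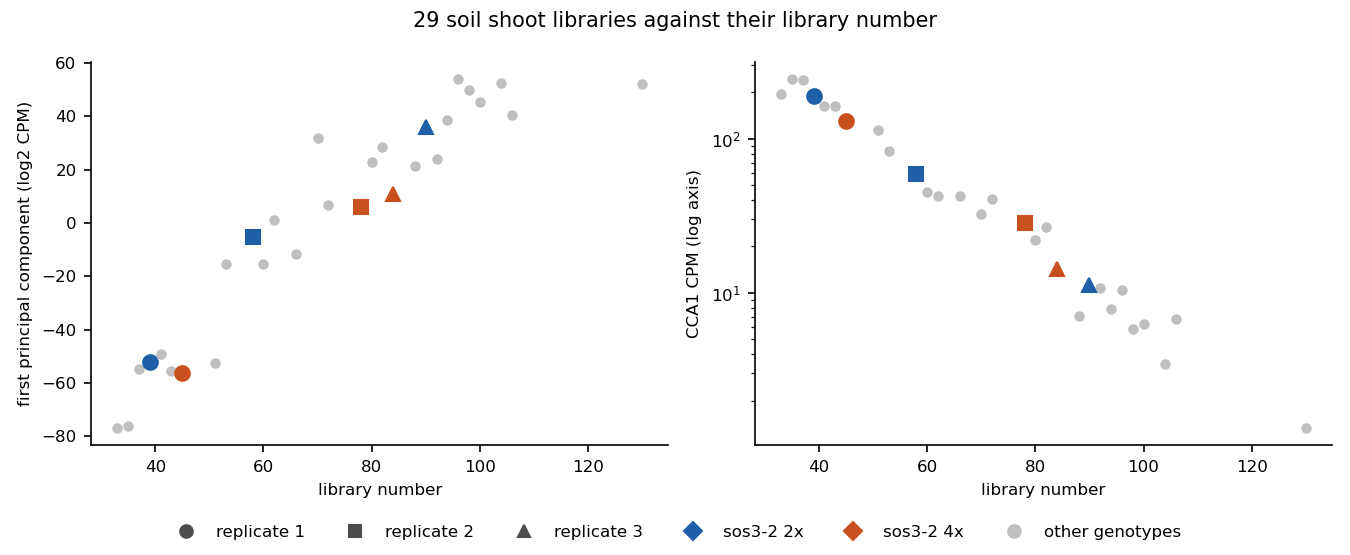
First principal component (left) and CCA1 in CPM on a log axis (right) against library number for 29 soil shoot libraries. Both follow the number, and the 3 diploid (blue) and 3 neo-tetraploid (orange) sos3-2 libraries spread over the same span, with CCA1 from 191 down to 11.2 CPM in 2x and from 130 to 14.3 CPM in 4x.

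Of 16623 genes tested between 4x and 2x sos3-2 shoots, 1 was called, 0.00602% of them, and it was lower in 4x. A gene was called where the edgeR quasi-likelihood p, adjusted by Benjamini-Hochberg, was under 0.05 and the log2 fold change was 0.5 or more in either direction. No gene rose (0%). The count depended on the fit, with 11 genes called by DESeq2 (4 higher, 7 lower), 248 in one fit of all 86 grouped libraries (146 higher, 102 lower), and 0 with limma-voom or in the 6 libraries alone. An unadjusted p under 0.05 was seen for 985 genes on the higher side (5.93%) and 688 on the lower side (4.14%), which is 10.1% in all. The 4x and 2x libraries did not overlap in 10.4% of genes, with 4x above in 5.55% and below in 4.82%. The log2 fold change was above 0 in 52.1% of genes. The median log2 fold change of all genes was 0.02. In a simulation of this comparison 20 of 100 genes changed by 1 on the log2 scale were recovered and 71 of 100 changed by 2. Most changes of that smaller size would thus go uncalled with 3 plants a group. The simulated counts were drawn with the fitted spread, and both sets of genes were changed together, which gave 99 calls. With 1 call, as in the real data, the adjustment asks for a smaller p. The shares recovered may therefore be too high for these data.

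The called gene was AT1G78450 on chromosome 1, annotated as a SOUL heme-binding family protein, a family named after heme-binding proteins of animals. It stood at 10.3, 8.33 and 9.32 CPM in the 2x plants and at 2.31, 2.35 and 2.47 CPM in the 4x plants. All 4x plants were below all 2x plants, and the 4x plants lay within a narrow band. The log2 fold change was -1.98 ± 0.29 (SE, edgeR adjusted p = 0.00855). Its counts were low, 14 to 19 reads in 4x and 49 to 80 in 2x, and they were whole numbers. The call was lost without 4x replicate 2 or 3 (adjusted p = 0.119 and 0.118) and without 2x replicate 1 or 3 (0.087 and 0.0549), as well as with limma-voom (0.0704) and in a fit of the 6 libraries alone (0.591), while the log2 fold change kept between -1.87 and -2.04 in all alternatives run. AT1G78460, its neighbour in name and a member of the same family, had a log2 fold change of -0.26 (adjusted p = 0.851).

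AT1G78450 also stood lower in 4x than in 2x shoots of the other genotypes. Mean CPM in 2x and 4x were 9.13 and 4.78 in wild type, 10.4 and 5.32 in rhd6-3/rsl1-1, 7.30 and 4.63 in chx25-3, and 11.2 and 8.14 in esb1-1. The difference passed the test in rhd6-3/rsl1-1 (log2 fold change -1.02, edgeR adjusted p = 0.0327) and not in wild type (-0.89, adjusted p = 0.0697), chx25-3 (-0.64, adjusted p = 0.606) or esb1-1 (-0.46, adjusted p = 0.420). The 2x libraries lay above the 4x libraries in every genotype other than esb1-1, where they overlapped. In soil roots the gene was next to silent, with at most 1 read in any sos3-2 library, so the difference could not be tested there.

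**Figure D2:**
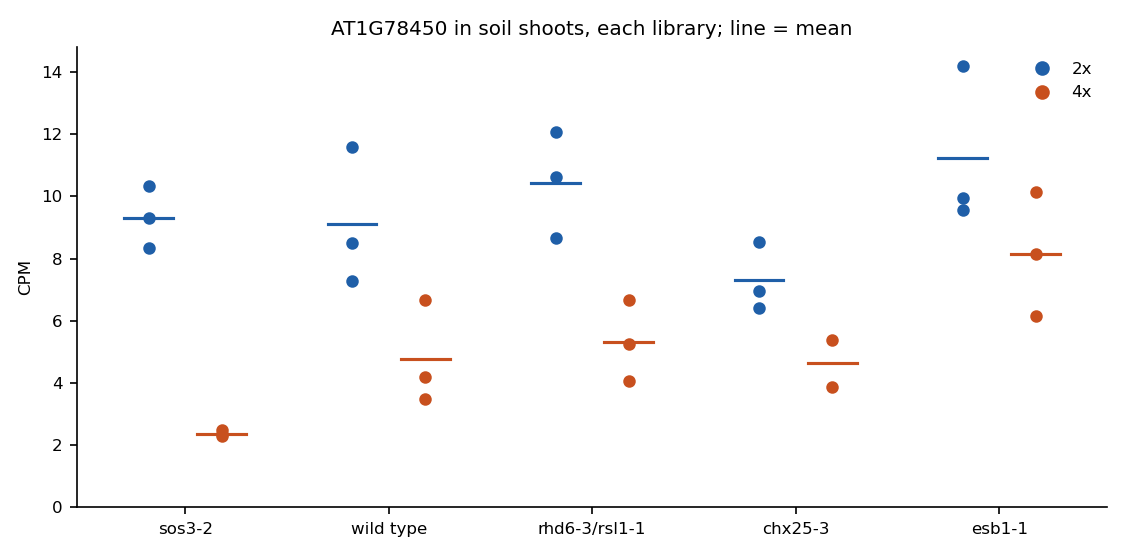
AT1G78450 in CPM in each soil shoot library of 5 genotypes, 2x in blue and 4x in orange, with lines at the means of 3 libraries (2 for chx25-3 4x). The sos3-2 4x libraries sit at 2.31 to 2.47 CPM, below all others.

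No further gene passed the test, and those with the smallest p and no overlap are given as values. RECA3, a homologue of bacterial RecA that guards mitochondrial DNA against recombination between repeats, stood at 6.40, 4.08 and 5.94 CPM in 2x and at 1.54, 1.68 and 1.95 CPM in 4x (log2 fold change -1.69 ± 0.34, adjusted p = 0.233). In soil roots its mean CPM were 5.41 in 2x and 6.32 in 4x (adjusted p = 0.772), and the tissues were not tested against each other. ASN2, an asparagine synthetase, was at 78, 97 and 63.1 CPM in 2x against 46.4, 37.2 and 30.9 in 4x (log2 fold change -0.99, adjusted p = 0.289). LUP1, a lupeol synthase of triterpene metabolism, was near the limit of detection in 4x at 0.154, 0.670 and 0.130 CPM, against 1.7, 2.55 and 1.28 CPM in 2x. The remaining 8 on the lower side had log2 fold changes between -2.12 and -0.70 and adjusted p of 0.233 to 0.301. They included AT1G07440 (an oxidoreductase-like protein, -1.02), AT1G66430 (a sugar kinase family protein, -0.93), LSH10 (-0.92) and AT4G27720 (a major facilitator family transporter, -0.70).

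The genes with the smallest p on the higher side had mixed annotations, and none was called. VAMP728, a vesicle fusion protein, stood at 4.30, 8.71 and 7.29 CPM in 4x and at 2.48, 1.36 and 2.21 CPM in 2x (log2 fold change 1.8 ± 0.37, adjusted p = 0.233). AT4G08850, a leucine-rich repeat receptor-like kinase, stood at 116, 112 and 144 CPM in 4x against 69.9, 48.3 and 46.4 CPM in 2x (log2 fold change 1.34, adjusted p = 0.3). FH4, a formin that nucleates actin filaments, stood at 40.1, 36.5 and 38.7 CPM in 4x against 27.2, 14.3 and 12.9 CPM in 2x (log2 fold change 1.29, adjusted p = 0.301). For these 3 genes every 4x plant was above every 2x plant, which was a condition of being listed here and held for 5.55% of all genes. AT1G11300 (a lectin receptor-like kinase, log2 fold change 1.94), NF-YA2 (a subunit of a CCAAT-box binding factor, 1.43) and AT4G23470 (a PLAC8 family protein, 1.1) were listed under the same condition, with an edgeR adjusted p of 0.301 each.

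**Figure D3:**
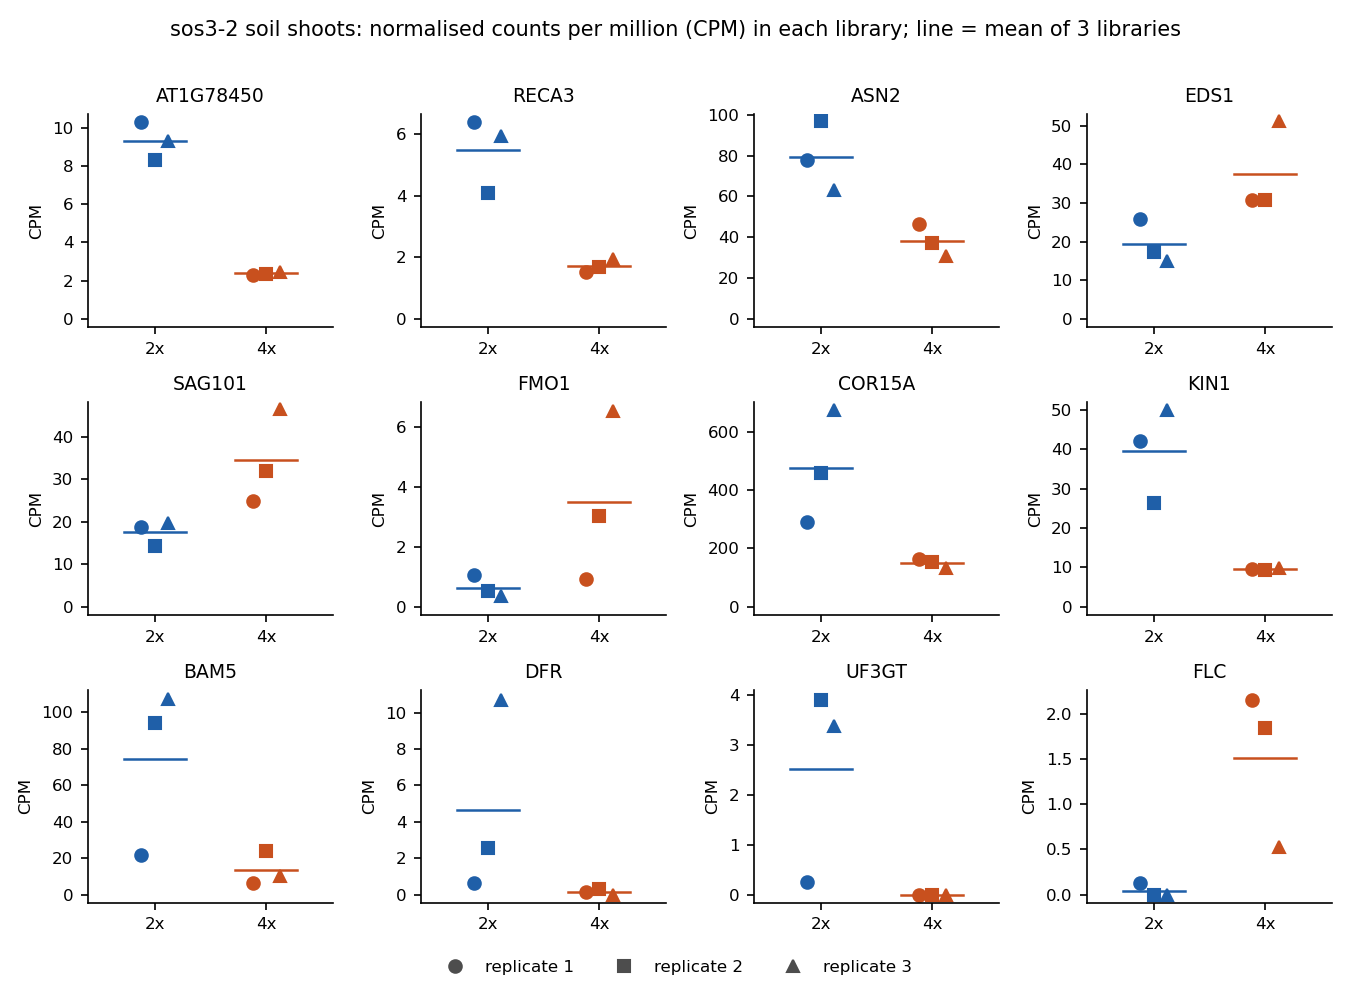
CPM of 12 genes in the 3 diploid (blue) and 3 neo-tetraploid (orange) sos3-2 shoot libraries, with each axis from 0 and lines at the means. Only AT1G78450 passed the test. Its 4x values (2.31 to 2.47 CPM) lie below its 2x values (8.33 to 10.3 CPM).

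Genes of salicylic acid defence leaned to higher values in 4x without any passing the test. Salicylic acid is made through ICS1, is signalled by EDS1 with its partners PAD4 and SAG101, and drives the PR genes of systemic resistance. All 19 members of the list were tested and all 19 had a positive log2 fold change, with a median of 1.16 against 0.02 for all genes. At an unadjusted p under 0.05 were 9 of 19, where 5.93% of all genes were that far on the higher side. Of the 19, 3 did not overlap between 4x and 2x, with 4x above, where 5.55% of all genes did so.

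EDS1, a lipase-like protein at the centre of this pathway, stood at 30.7, 30.7 and 51.2 CPM in 4x and at 25.9, 17.3 and 14.9 CPM in 2x (log2 fold change 1.16 ± 0.28, adjusted p = 0.301). Its counts were partly shared with a close copy and are uncertain for that reason. SAG101 stood at 24.9, 31.8 and 46.5 CPM in 4x against 18.7, 14.3 and 19.7 CPM in 2x (log2 fold change 1.06, adjusted p = 0.321). PR5, a thaumatin-like secreted protein, stood at 140, 209 and 677 CPM in 4x against 145, 59.3 and 138 CPM in 2x, so that its groups overlapped (log2 fold change 1.77, adjusted p = 0.410). FMO1, which makes the mobile resistance signal N-hydroxypipecolic acid, stood at 0.922, 3.02 and 6.51 CPM in 4x against 1.04, 0.510 and 0.349 CPM in 2x (log2 fold change 3.13, adjusted p = 0.353). In 2x shoots of any genotype FMO1 exceeded 2 CPM only in replicate 1 of wild type (7.92) and of chx25-3 (3.49). It thus passed the filter of 2 CPM in 3 libraries only with 4x plants, where it was high. Its direction lends no independent support, though it counts among the 9 members at an unadjusted p under 0.05. PR1, the usual marker of the pathway, varied from plant to plant within each group, at 26.3, 90.3 and 176 CPM in 4x and 20.3, 2.21 and 130.3 CPM in 2x.

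The lean of the list was uneven over plants. Its median log2 ratio to the 2x mean was 0.28, 1.04 and 2.04 in 4x replicates 1 to 3, and 0.45, -0.83 and 0.39 in the 2x plants. Thus 4x replicate 1 lay within the 2x range and 4x replicate 3 above all. Without 4x replicate 3 the median was 0.63 with 1 gene at an unadjusted p under 0.05, and without 4x replicate 1 it was 1.67 with 14 genes. Set against their own 2x plants, the list median was 3.04 in rhd6-3/rsl1-1 shoots, 1.99 in esb1-1, 1.58 in wild type and 1.08 in chx25-3. No gene of the list was called in the test of the difference between sos3-2 and wild type or esb1-1. In soil roots of sos3-2 the median was 0.23 over the 16 members tested.

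Heat shock genes had a median log2 fold change of 1.21 over 8 of 14 members tested, all 8 positive. HSP90.1, a cytosolic chaperone, stood at 55.8, 35.7 and 47.8 CPM in 4x against 33.6, 20.9 and 10.4 CPM in 2x (log2 fold change 1.66, adjusted p = 0.476). It and HSP17.4 were the 2 members at an unadjusted p under 0.05, where 5.93% of all genes were on that side, and MBF1C, a coactivator of the heat response, overlapped between groups (log2 fold change 0.28). The lean was uneven over plants, with list medians of 1.45, 0.06 and 0.47 in 4x replicates 1 to 3 against 0.69, 0.06 and -0.74 in 2x, so that 4x replicates 2 and 3 lay within the 2x range. Among 20 genes of the rapid stress response 14 were positive, with a median of 0.50 and with TCH3, whose reads were partly shared, and WRKY46 at an unadjusted p under 0.05.

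Cold response genes leaned lower in 4x shoots. COR and KIN genes encode small protective proteins that CBF factors induce in the cold and under drought. Of 11 members 10 were tested, all had a negative log2 fold change, and the median was -0.90. At an unadjusted p under 0.05 were 5 of 10, where 4.14% of all genes were on that side. COR15A, which protects chloroplast membranes, stood at 292, 458 and 674 CPM in 2x and at 164, 152 and 133 CPM in 4x (log2 fold change -1.66 ± 0.50, adjusted p = 0.321). KIN1 stood at 42.2, 26.4 and 50.0 CPM in 2x and at 9.68, 9.38 and 9.90 CPM in 4x (log2 fold change -2.13 ± 0.69, adjusted p = 0.321). Both genes kept all 4x plants below all 2x plants, and the 4x plants were close to each other. Of the 10 members 3 lay apart in this way, where 4.82% of all genes did so. The counts of KIN1 and of its neighbour COR6.6 were not all whole numbers, so reads may be split between them and the KIN1 values are uncertain. The CBF genes themselves did not separate the groups, with log2 fold changes of -0.09 for CBF2 and -0.46 for CBF3. The same list had a median of -1.15 in wild type, -0.14 in rhd6-3/rsl1-1, -0.61 in esb1-1 and -1.33 in chx25-3.

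Genes of the last steps of anthocyanin synthesis had the lowest list median. Anthocyanins are red pigments made from flavonoids, and the factor PAP1 switches on the last enzymes. Of 9 members 6 were tested, all 6 were negative, 5 did not overlap (4.82% of all genes did so with 4x lower) and 4 had an unadjusted p under 0.05 (4.14% of all genes on that side). DFR, the dioxygenase LDOX and UF3GT reached at most 1.78, 1.29 and 1.45 CPM in 4x shoots of any genotype. They thus passed the filter of 2 CPM in 3 libraries through 2x plants, where they were high. Their sign and lack of overlap lend no independent support. DFR, the first enzyme of the branch, stood at 0.653, 2.55 and 10.7 CPM in 2x and at 0.154, 0.335 and 0 CPM in 4x (log2 fold change -5.15, adjusted p = 0.321). UF3GT, a glycosyltransferase that decorates anthocyanins, stood at 0.261, 3.91 and 3.38 CPM in 2x and had no read in any 4x library. Against a floor of 3 counts per library it was at least 5.57-fold lower in 4x (adjusted p = 0.301). The regulator PAP1 stood at 22.9, 13.6 and 32.1 CPM in 2x against 12.1, 12.7 and 6.25 CPM in 4x (log2 fold change -1.16, adjusted p = 0.554). The list median was -3.35, or -2.78 with UF3GT at its bound. In shoots of the other genotypes the fitted median was -6.06 in rhd6-3/rsl1-1, -5.66 in wild type, -3.81 in esb1-1 and -3.11 in chx25-3. The lean was thus not particular to sos3-2. Early flavonoid genes had a median of -0.43 over 7 of 8 members, with none at an unadjusted p under 0.05.

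In the fit with library number starch breakdown genes also leaned lower, with all 15 members negative and a median of -0.57. At an unadjusted p under 0.05 were 3, where 4.14% of all genes were on that side. The list's median log2 ratio to the 2x mean was -1.21, -0.356 and 0.565 in 4x replicates 1 to 3. In 2x replicates 1 to 3 it was -0.915, -0.36 and 1.26. The plants of both groups thus overlapped, and the values rose with library number in both. BAM5, a beta-amylase, stood at 21.7, 94.2 and 107.2 CPM in 2x and at 6.61, 23.8 and 10.0 CPM in 4x (log2 fold change -2.66 ± 0.72, adjusted p = 0.313). MEX1, which exports maltose from the chloroplast, stood at 18.9, 16.5 and 29 CPM in 2x against 8.45, 15.1 and 16.4 CPM in 4x (log2 fold change -0.81). LDA, a debranching enzyme of starch, had a log2 fold change of -0.68. The BAM5 groups overlapped slightly, and the MEX1 groups were separated by a gap of under 1 CPM. Day and evening clock genes had a median of -0.98 with 8 of 8 negative and none at an unadjusted p under 0.05. Their plants overlapped too, at -1.07, -0.754 and 0.619 in 4x and -0.357, -1.36 and 1.52 in 2x. Morning clock genes had a median log2 fold change of 0.14.

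**Figure D4:**
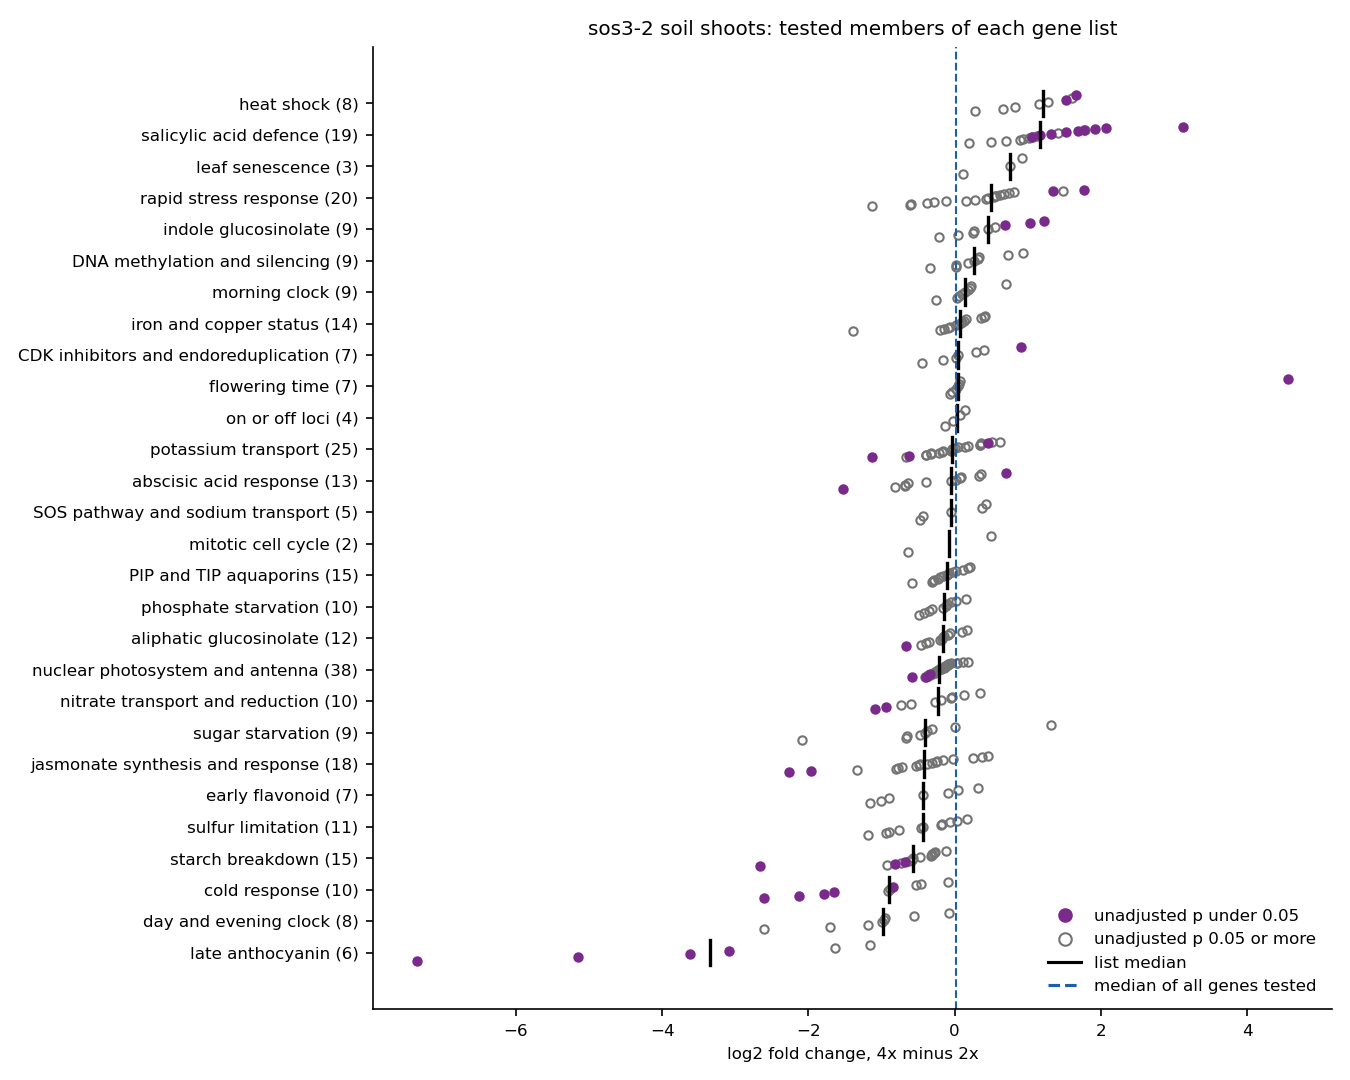
Log2 fold change, 4x minus 2x, of the tested members of 28 gene lists in sos3-2 shoots (number tested in brackets), with list medians as black bars and the median of all genes (0.02) as a dashed line. Filled points have an unadjusted p under 0.05. No member passed the test, and the medians run from 1.21 for heat shock to -3.35 for late anthocyanin genes.

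Potassium transport genes, which bear on the study's question, showed little difference. Of 27 members 25 were tested, 11 were positive and 14 negative, and the median log2 fold change was -0.04. GORK, the channel through which guard cells release potassium, stood at 1.05, 1.53 and 1.63 CPM in 2x and at 0.307, 0.838 and 0.911 CPM in 4x (log2 fold change -1.13 ± 0.49, adjusted p = 0.446). CBL9, a calcium sensor that helps activate the uptake channel AKT1, had a log2 fold change of -0.63 (adjusted p = 0.452). KUP4, a potassium transporter, had one of 0.45 (adjusted p = 0.457). These 3 were the members at an unadjusted p under 0.05, and none overlapped between groups. A count of 3 in 25 is close to the 10.1% of all genes at that p and the 10.4% without overlap. AKT1 itself was at 3.92, 1.53 and 1.86 CPM in 2x and 5.53, 2.01 and 2.21 CPM in 4x, with overlap (log2 fold change 0.51, adjusted p = 0.747). HAK5, the high-affinity root transporter, had at most 0.523 CPM and was not tested.

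The SOS pathway itself did not separate the groups. SOS3 had 1 to 6 reads in each sos3-2 shoot library, at 0.653, 1.02 and 0.233 CPM in 2x and 0.307, 0.168 and 0.781 CPM in 4x, too few to test or to check the allele. SOS1 stood at 5.23, 2.55 and 3.73 CPM in 2x and 4.30, 4.69 and 5.47 CPM in 4x (log2 fold change 0.37, adjusted p = 0.759). SOS2 stood at 2.48, 1.36 and 2.68 CPM in 2x and 1.38, 3.18 and 4.30 CPM in 4x (log2 fold change 0.42, adjusted p = 0.837). For both, the libraries overlapped. CBL10, the shoot relative of SOS3 that also works with SOS2, had a log2 fold change of -0.44 (adjusted p = 0.632) and shared some reads with another gene, which makes its counts uncertain. The vacuolar antiporters NHX1 and NHX2 had values of -0.05 and -0.48. A p that misses the threshold does not show that the levels were equal.

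Smaller leans appeared in defence metabolism and nitrogen lists. Of 9 indole glucosinolate genes tested, 8 were positive with a median of 0.46. CYP81F2, which modifies indole glucosinolates for antifungal defence, stood at 10.6, 12.1 and 9.51 CPM in 4x against 4.83, 4.42 and 5.12 CPM in 2x (log2 fold change 1.22, adjusted p = 0.427). The regulator MYB51 (log2 fold change 1.03) and the sulfotransferase SOT16 (0.69) were the other 2 at an unadjusted p under 0.05, where 5.93% of all genes were on that side. Aliphatic glucosinolate genes had a median of -0.16. Jasmonate genes had a median of -0.43 over 18 members tested, with VSP1 and VSP2, storage proteins whose reads were shared between them, at -2.26 and -1.97. Of 10 nitrate genes tested 8 were negative and 2 positive, with a median of -0.23. All 4x plants were below all 2x plants for 3 of them, as for 4.82% of all genes. LBD38 and LBD39, repressors of nitrogen-responsive genes, were among these 3 (log2 fold changes -1.09 and -0.93, edgeR adjusted p = 0.451 and 0.406). They were the 2 members at an unadjusted p under 0.05, where 4.14% of all genes were on that side. Nuclear genes of the photosystems and antenna had a median of -0.21, with 34 of 38 negative and 3 at an unadjusted p under 0.05 (4.14% of all genes on that side). In bulk shoots, fewer cells of a type and less RNA per cell cannot be told apart.

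Of 7 genes tested among inhibitors of cyclin-dependent kinases and endoreduplication genes, 1 had an unadjusted p under 0.05 (KRP1). Of 7 flowering genes tested, 1 did so (FLC). In lists this small, that is near the 10.1% of all genes at that p. KRP1, an inhibitor of cyclin-dependent kinases, stood at 34.7, 16.8 and 17.7 CPM in 4x against 13.8, 12.2 and 11.8 CPM in 2x (log2 fold change 0.90 ± 0.28, adjusted p = 0.321). FLC, the MADS-box repressor of flowering, stood at 2.15, 1.84 and 0.521 CPM in 4x, whereas 2x had 0.131 CPM in 1 plant and no read in the others (adjusted p = 0.301). Over all genotypes FLC reached at most 1.24 CPM in a 2x shoot library. It thus passed the filter of 2 CPM through 4x plants, where it was high, and its direction lends no independent support. In soil roots FLC stood at 1.52, 2.17 and 0.400 CPM in 4x against 0.131, 0.129 and 0.238 CPM in 2x (adjusted p = 0.339). Its relatives MAF1, MAF2, MAF3 and SVP had log2 fold changes between -0.03 and 0.07. In 4x shoots of rhd6-3/rsl1-1 FLC rose (2.71 against 0.240 CPM, log2 fold change 3.78, edgeR adjusted p = 0.0223), and it was not called in wild type, esb1-1 or chx25-3.

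The remaining lists had medians near that of all genes or no member at an unadjusted p under 0.05. Aquaporins had a median of -0.11, phosphate starvation genes -0.14, sulfur limitation genes -0.44, sugar starvation genes -0.41, iron and copper genes 0.07, abscisic acid genes -0.04, DNA methylation and silencing genes 0.27 and leaf senescence genes 0.76 over 3 members. Within the abscisic acid list RD26 (-1.53) and HAB1 (0.70) had an unadjusted p under 0.05 in opposite directions. Of 14 mitotic genes 2 passed the filter on low values.

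The response to genome doubling was tested against that of wild type. The difference, sos3-2 minus wild type, passed the test for 3 genes (0.018% of those tested), while 819 genes (4.93%) had an unadjusted p under 0.05. All 3 had a lower log2 fold change, 4x minus 2x, in sos3-2 than in wild type. All 3 rose with ploidy in wild type, and none was called in sos3-2. Their 2x levels already differed. AT1G75945 stood at 29.7, 29.6 and 19.7 CPM in 2x sos3-2 and 38.1, 23.63 and 14.2 CPM in 4x sos3-2, whereas wild type had 0.387, 0.384 and 0.116 CPM in 2x and 17.9, 24 and 19.4 CPM in 4x. The difference of log2 fold changes was -6.07 ± 0.78 (edgeR adjusted p = 0.000361). The gene was also on in chx25-3, at 33.9, 18.5 and 23.1 CPM in 2x and a mean of 21.1 CPM in 4x. It was near 0 in both ploidies of esb1-1 (means of 0.479 and 0.356 CPM) and low in those of rhd6-3/rsl1-1 (1.19 and 0.331 CPM).

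QQS, a small gene without known relatives outside Arabidopsis that affects starch content, had means of 36.8 CPM in 2x and 43.3 in 4x sos3-2, against 7.91 and 47.7 CPM in wild type (difference -2.59 ± 0.42, adjusted p = 0.0204). ESM1, which steers the breakdown of glucosinolates, had means of 1450 and 1175 CPM in sos3-2 against 315 and 1064 CPM in wild type (difference -2.22 ± 0.38, adjusted p = 0.0330). The sos3-2 levels of both overlapped between 4x and 2x, with log2 fold changes of 0.14 and -0.35. The low 2x level of ESM1 was that of wild type, since the other diploids had means of 1766 CPM (esb1-1), 1540 CPM (rhd6-3/rsl1-1) and 1282 CPM (chx25-3). For QQS the same diploids had 21.5, 37.7 and 7.85 CPM. AT3G01345 had 58.7 CPM in 2x wild type and next to none in 4x wild type, whereas 2x sos3-2 shoots had 0.261, 0 and 0 CPM. It was near 0 in the other diploid mutants too, with means of 0.148 CPM in esb1-1, 0 in rhd6-3/rsl1-1 and 0.0551 CPM in chx25-3. Among 7 loci known from these data to be on in some lines and off in others, 4 could be tested in sos3-2, and their log2 fold changes lay between -0.13 and 0.14. The AT1G75945 difference was called in all alternatives run, while QQS and ESM1 were lost in several.

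Against esb1-1, a Casparian strip mutant, no gene passed the edgeR test of the difference (smallest adjusted p = 0.623, with 955 genes or 5.75% at an unadjusted p under 0.05 and 4 genes called by DESeq2). For ploidy 1391 genes (8.37%) were called in rhd6-3/rsl1-1 shoots, 498 (3%) in wild type, 4 (0.0241%) in esb1-1 and 0 in chx25-3, where 1366 had an unadjusted p under 0.05. These counts do not by themselves show that sos3-2 responded less. The test of the difference from wild type called the 3 genes above.

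In soil roots of sos3-2 35 of 19018 genes were called (0.184%), and none of them was the shoot gene AT1G78450, which was too low there to be tested. On plates 2 of 18922 genes (0.0106%) were called in roots, from 3 libraries of 4x and 2 of 2x.

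Within the 4x group, plants differed in the expression of whole chromosomes. For each library, the median log2 ratio to the 2x mean was taken over the genes of one chromosome and compared with that over the other 4. A diploid library was set against the other diploids of its genotype and set, without itself. In 4x replicate 3, the 878 genes of chromosome 4 that passed a level filter lay 0.14 above the rest on the log2 scale, with 58.1% of them above the 2x mean against 45.8% of other genes. Cut into 8 blocks along the chromosome, all blocks were positive, from 0.0332 to 0.228. In 4x replicate 2, chromosome 1 lay 0.08 above the rest, again with 8 of 8 blocks positive, and in 4x replicate 1 the largest shift was 0.0405, for chromosome 3. Among 15 diploid shoot libraries of all genotypes the values ran from -0.0389 to 0.033.

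The soil root libraries showed the same chromosomes in the same replicate numbers. Root 4x replicate 3 had a shift of 0.129 for chromosome 4, with 68.6% of its genes above the 2x mean against 50.7% elsewhere and blocks between 0.0926 and 0.16. In root 4x replicate 2 chromosome 1 was shifted by 0.0515, and in root 4x replicate 1 no chromosome moved by more than 0.00523. Diploid soil roots ran from -0.0215 to 0.0164. The library numbers of these roots follow directly on those of the shoots with the same replicate number, but the labels do not say that they came from the same plants. In plate roots, which pool plants, the sos3-2 4x libraries stayed within the diploid range.

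Of the neo-tetraploid shoots of other genotypes, 9 of 11 libraries were also beyond the largest diploid size of 0.0389, with values from -0.155 to 0.168. All 3 sos3-2 libraries were beyond it, replicate 1 by little. In the ploidy fit 7.17% of chromosome 4 genes and 6.62% of chromosome 1 genes were higher in 4x at an unadjusted p under 0.05, against 5.11 to 5.42% on chromosomes 2, 3 and 5. DNA copy number was not measured in these libraries, and the part of the shifts in any single gene's value was not tested.

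**Figure D5:**
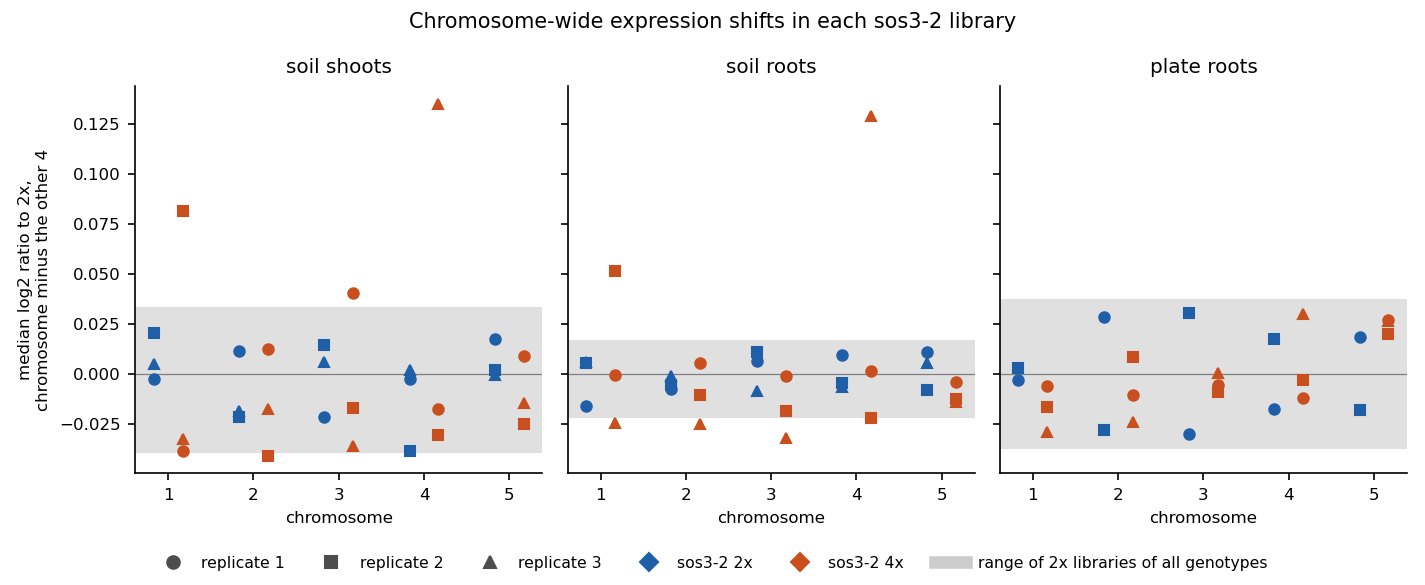
Median log2 ratio to the 2x mean of each chromosome's genes minus that of the other 4, for every sos3-2 library of 3 sets, with 2x in blue, 4x in orange, symbols for replicates and the range of diploid libraries of all genotypes in grey. Chromosome 4 in 4x replicate 3 (0.135 in shoots, 0.129 in roots) and chromosome 1 in 4x replicate 2 (0.0812 and 0.0515) stand out in both soil tissues.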

How the data were processed

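Per the labels and the study's methods, libraries were made with a QuantSeq 3′ mRNA kit, sequenced as single-end reads and quantified by the authors with Salmon on Galaxy Europe. The version, transcript set, genome build and use of strand were not given in the sources used here, so no coordinates or sequences are shown. The authors deposited expected counts for each transcript, which need not be whole where transcripts share reads. A deposited TPM table was not used. These were summed over the transcripts of a gene, then rounded. A gene was kept where 3 or more of the 29 grouped soil shoot libraries had 2 CPM or more. Of 88 libraries, 2 had conflicting labels and were not grouped.

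Libraries were scaled by TMM and fitted with edgeR 4.0.16 (R 4.3.3, bias-corrected quasi-likelihood, robust), with a mean for each of 10 groups and a linear term for library number. CPM are on TMM-scaled library sizes. All 29 libraries share one spread. Soil roots were fitted likewise, and plate roots without library number. Alternatives were DESeq2 1.42.0, limma-voom (limma 3.58.1), other covariates, filters, scalings and sample sets, and leaving out each replicate. The floor was 3 counts and covers only counting error, as no molecular identifiers are mentioned. Tested on simulated data, 8 of 99 calls over 16623 genes were false.

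The comparison, the gene lists and the tests were chosen with earlier results of these data known. Genes named are the called gene, those of smallest p without overlap to fill 12 in each direction, SOS3, and for each list the called members or up to 4 of smallest p. Others (PR1, PAP1, the CBF, MAF and NHX genes, AKT1, HAK5, MBF1C, AT1G78460) were picked after their values had been seen. Symbols and products are from RefSeq TAIR10.1.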

Additional observations from a re-analysis of the deposited data

Results flagged for a closer look

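The ploidy effect differed between sos3-2 and wild type shoots for 3 genes by the test of the difference itself (edgeR, adjusted p under 0.05). For AT1G75945 the difference in log2 fold change, sos3-2 minus wild type, was -6.07, for QQS -2.59 and for ESM1 -2.22. For each, 3 of 3 diploid sos3-2 libraries lay above 3 of 3 diploid wild type libraries.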

How the results depend on the processing

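The count of 1 called gene in sos3-2 shoots was 11 with DESeq2 (4 higher, 7 lower), 248 in one fit of all 86 grouped libraries (146 higher, 102 lower), 0 with limma-voom and 0 in a fit of the 6 libraries alone. Leaving out each replicate gave 0 to 10, the 10 without 4x replicate 1 (9 higher, 1 lower), and 0 without 4x replicate 2, 4x replicate 3, 2x replicate 1 or 2x replicate 3. AT1G78450 was called in the first 2 of these fits. With a replicate block the count was 1, with or without library number. Whether the numbers pair the samples could not be decided from 3 replicates a group. Correlations of same-numbered deviations were 0.266, 0.0947 and 0.472, and those of other pairs ran from -0.529 to 0.242. For 4x replicates 1 and 3 the same-numbered 2x plant was the closest, whereas 4x replicate 2 was closest to 2x replicate 3 (0.17).

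The 3 genes that differed from wild type became 1 without library number, and with a factor for the series of S numbers, 1 or 2, in its place. They also became 1 with the replicate block, with or without library number, and when those groups were fitted by themselves. They became 10 with DESeq2 (5 higher, 5 lower), 28 in the fit of 86 libraries (23 higher, 5 lower) and 1 to 4 on leaving out a replicate, with 1 without sos3-2 4x replicate 2, sos3-2 2x replicate 1, wild type 4x replicate 3, wild type 2x replicate 1 or wild type 2x replicate 3. The 0 genes that differed from esb1-1 became 4 with DESeq2 and 15 in the fit of 86 libraries. The 0 genes called in both shoots and soil roots became 1 in that fit. The causes were not tested. The chromosome 1 shift of 4x replicate 2 was 0.0617 with genes over a mean log2 CPM of 6, an alternative chosen after seeing the data, and that of chromosome 4 in 4x replicate 3 stayed between 0.124 and 0.143. Among 2617 values of the 132 named genes under alternatives, 39 changed sign, none of them in the 60 genes at an unadjusted p under 0.05.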

Other observations

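AAE18, an acyl-activating enzyme of peroxisomes, was picked after its values had been seen, as the gene with the smallest p in the difference from esb1-1 and the smallest uncalled p in that from wild type. In sos3-2 shoots it stood at 9.68, 2.85 and 1.69 CPM in 4x and 2.48, 1.7 and 0.233 CPM in 2x, with overlap (log2 fold change 1.89, edgeR adjusted p = 0.289). In soil roots it rose from 2.16 ± 0.54 CPM in 2x to 8.81 ± 2.53 CPM in 4x (SD, n = 3 each), without overlap of the libraries (log2 fold change 2.08, edgeR adjusted p = 0.00390). In plate roots it stood at 3.14 and 5.24 CPM in 2x and 9.37, 10.1 and 7.30 CPM in 4x (log2 fold change 1.11, adjusted p = 0.924). In wild type and esb1-1 shoots the log2 fold changes were -0.80 and -0.92, neither called.

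SOS3 was somewhat better covered in soil roots, with 1.96, 1.93 and 2.14 CPM in 2x sos3-2 and 2.46, 4.47 and 4.00 CPM in 4x sos3-2 (log2 fold change 0.86, edgeR adjusted p = 0.260). The allele could not be checked from these counts.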
